A study of Arabidopsis thaliana with 6 samples.

Results

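The Aux/IAA, GH3 and TIR1/AFB auxin genes of Arabidopsis thaliana described here are 37 loci. Of these, 29 are genes for Aux/IAA repressors (IAA1 to IAA20 and IAA26 to IAA34). The others are the conjugating enzyme genes GH3.3, GH3.5 and GH3.6, and the receptor genes TIR1, AFB1, AFB2, AFB3 and AFB5. All 37 were chosen by locus identifier from the 33602 loci of the count tables, not by a threshold on these values. Earlier results of these data were known when the choice was made. The receptor gene AFB4 and further GH3 genes were not among them and were counted with other lists. Messenger RNA was sequenced from 3 msh1 memory plants, numbered 31, 32 and 33, and from 3 wild-type plants, numbered 22, 23 and 24. All 6 plants were of the Columbia-0 accession, and the labels call the memory line isogenic with the wild type. As background, msh1 memory plants descend from plants in which MSH1, a nuclear gene for an organelle-targeted MutS protein, was suppressed, and they keep a changed growth habit after the suppressing transgene has segregated away. After stratification at 4 °C for 2 days, all plants grew at 22 °C under 120 to 150 µmol of light per square metre per second. They were frozen whole when bolting began. Not given in the sources used here were their age in days and how many parent plants lay behind each group.

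Auxin acts by removing a brake. The hormone fits between a TIR1/AFB F-box protein and a short degron in an Aux/IAA protein, the Aux/IAA protein is then marked with ubiquitin and destroyed, and the auxin response factors (ARFs) it had held in check can act on their targets. Many Aux/IAA and GH3 genes are themselves such targets, and GH3 enzymes join free auxin to amino acids, so the transcripts of both families are in common use as readouts of auxin response, in shoots as in roots.

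The libraries held 4060216 to 5053439 counts in memory plants and 5459895 to 5806617 counts in wild-type plants. Levels are given as CPM, read counts scaled to a common library size by the trimmed mean of M values (TMM), where 1 CPM stands for 4.34 to 5.76 reads. Wild-type plant 23 stood apart from the rest, with a median Pearson correlation with the other plants of 0.941 (log2 CPM across genes) against 0.950 to 0.962 for the others. MSH1 itself had 12.6, 13.0 and 16.8 CPM in memory plants 31, 32 and 33, against 17.4, 12.5 and 12.1 CPM in wild-type plants 22, 23 and 24. Of 10 root markers 6 (PLT1, PLT2, RHD6, EXPA7, EXPA18 and RSL4) had 0 reads in every library and WOX5 and COBL9 had at most 2, so the libraries labelled as whole plants hold little or no root signal, while SCR and SHR, which shoots also express, summed with the rest to 29.0 to 33.0 CPM in memory plants and 25.8 to 31.1 CPM in wild-type plants. All of 10 flower organ markers had reads in some library, and they summed to 6.18, 11.0 and 13.8 CPM in memory plants and to 2.33, 5.01 and 5.73 CPM in wild-type plants. The groups were apart in AP3 and SEP2, with the memory plants higher, and overlapped in the other 8. Of all tested genes, 19.7% had groups apart. Both were too low to test, with 4, 7 and 4 reads (AP3) and 5, 7 and 13 reads (SEP2) in memory plants. Wild-type plants had 0, 0 and 0 and 1, 0 and 1 reads. PI, which acts with AP3 in petals and stamens, averaged 1.22 CPM in memory plants and 1.19 CPM in wild-type plants. SEP1 averaged 1.21 and 0.347 CPM and SEP3 averaged 2.78 and 0.579 CPM in memory and wild-type plants. SHP1 alone had the lower mean in memory plants, at 0.0769 against 0.439 CPM. The part of these marker differences in the results was not tested. In whole-plant RNA, fewer cells of a type and less transcript per cell cannot be told apart.

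None of these auxin genes passed the test between the groups. 28 of the 37 genes had enough reads to be tested, and edgeR's quasi-likelihood test with Benjamini-Hochberg adjustment over 16928 genes called 0 of them at 0.05, where 1.82% of all tested genes were called (0.449% higher and 1.37% lower in memory plants). DESeq2 called 0 of 30 members, where it called 2.83% of all its tested genes, and limma voom called 0 of 28 members and 1.32% of all genes. Without wild-type plant 23, 5.94% of all tested genes were called and 0 of 27 members. At an unadjusted p under 0.05 there were 5 members with edgeR, 4 with DESeq2 and 5 with voom, and with edgeR 12.8% of all tested genes lay under that value. The smallest adjusted p was 0.136, for IAA18. Log2 fold changes (msh1 memory minus wild type) ran between -0.49 and 0.60, with a median of 0.10, against a median of 0.0080 over all genes tested.

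The precision differed between the families. For 19 of the 28 genes the 95% confidence interval of the fold change lay within a doubling and a halving, as it did for 73.7% of all tested genes, and for 11 it lay within 1.5-fold either way. All 5 receptors, 14 of 20 Aux/IAA genes and none of the 3 GH3 genes were among the 19. In the 8 genes whose groups did not overlap the memory plants were the higher group each time (IAA3, IAA8, IAA12, IAA14, IAA17, IAA18, AFB2 and AFB5). These were 28.6% of the members tested, where the groups were apart in 19.7% of all genes tested, in 9.52% with the memory plants higher.

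**Figure D1:**
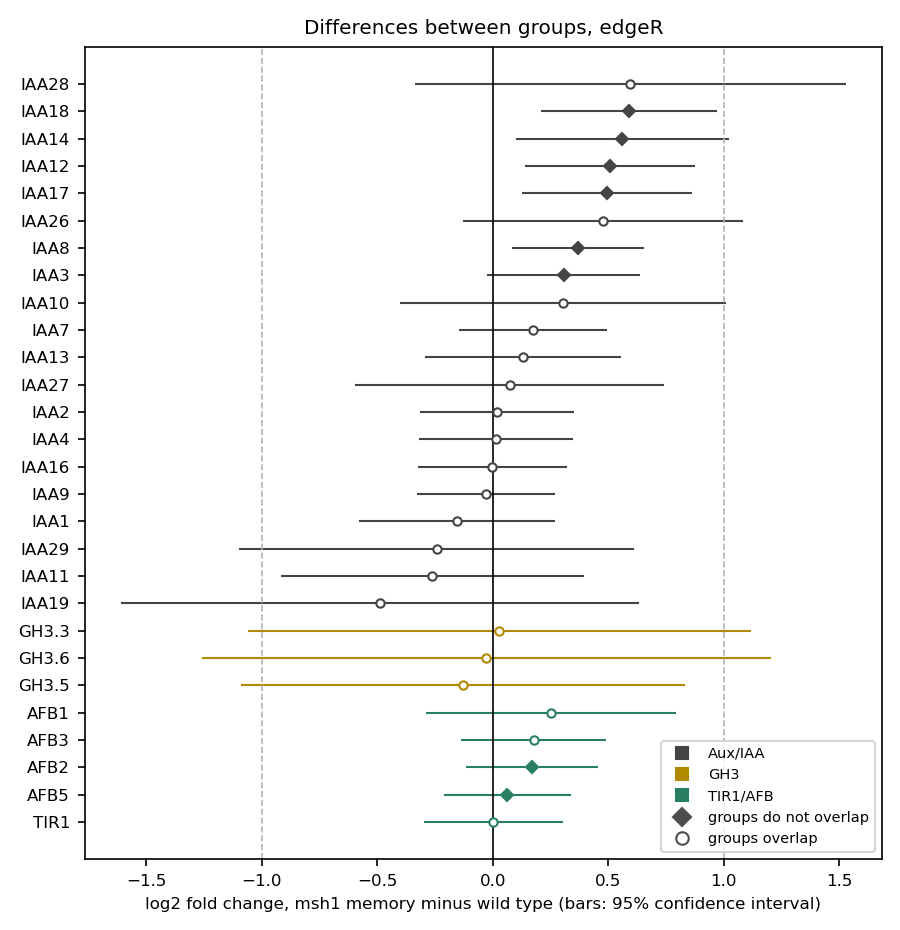
Log2 fold change (msh1 memory minus wild type) of each tested auxin gene with its 95% confidence interval from edgeR; colours mark the family, filled diamonds genes whose groups did not overlap, and dashed lines a 2-fold change. The intervals of the receptors lie between the dashed lines, with that of AFB1 the widest among them. Those of the GH3 genes reach past a dashed line, and every filled diamond lies to the right of 0.

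The receptors act first in the pathway, and none of the 5 was called. TIR1 (AT3G62980, chromosome 3, 23273065 to 23276630), the founding auxin receptor, had 119.4, 109.5 and 137.0 CPM in memory plants 31, 32 and 33, against 126.9, 123.2 and 115.1 CPM in wild-type plants 22, 23 and 24. The groups overlapped throughout. The log2 fold change was 0.0023 ± 0.139 (SE; 95% interval -0.30 to 0.30, adjusted p = 0.997 in edgeR), which leaves out a change of 1.5-fold in either direction.

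AFB2 (AT3G26810, chromosome 3, 9867652 to 9870782) had 69.5, 65.6 and 76.1 CPM in memory plants and 61.6, 65.0 and 61.3 CPM in wild-type plants. Its lowest memory plant stood just above its highest wild-type plant, and the log2 fold change was 0.17 ± 0.131 (SE; adjusted p = 0.653 in edgeR). AFB3 (AT1G12820, chromosome 1, 4368760 to 4371298), the closest relative of AFB2, had 80.8, 71.0 and 87.8 CPM in memory plants and 68.2, 79.1 and 64.6 CPM in wild-type plants, with groups that overlapped. AFB5 (AT5G49980, chromosome 5, 20333897 to 20336671), a receptor known for its response to the herbicide picloram, had the narrowest range of the receptors, with 82.5, 80.1 and 85.8 CPM in memory plants and 79.3, 80.0 and 78.3 CPM in wild-type plants. The AFB5 groups touched without overlapping, at a log2 fold change of 0.06 ± 0.126 (SE; adjusted p = 0.888 in edgeR).

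AFB1 (AT4G03190, chromosome 4, 1404887 to 1407402), the receptor best known for fast root responses, varied most for its level among the receptors. It had 27.1, 29.5 and 33.4 CPM in memory plants and 35.2, 16.0 and 24.1 CPM in wild-type plants 22, 23 and 24. The wild-type plants spread around the memory plants on both sides, with plant 23 lowest, and the log2 fold change was 0.25 ± 0.245 (SE; adjusted p = 0.735 in edgeR). Without plant 23 it was 0.022 and without wild-type plant 22 it was 0.57 (adjusted p = 0.336 in edgeR). AFB1 and AFB3 overlap other annotated genes, so some of their reads may belong to those.

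A known brake on the receptors is the microRNA miR393, which pairs with their transcripts. The miRNA and its best-paired window in the coding sequences of TIR1, AFB1, AFB2 and AFB3 are shown as background. MIR393a (chromosome 2, 16652111 to 16652132 for the mature strand) and MIR393b (chromosome 3, 20691657 to 20691678) give the same 22-base mature sequence in the RefSeq annotation of TAIR10.1, with its seed in capitals here. The sites below it are written 5′ to 3′ from the same assembly, with capitals at bases that do not pair with miR393 by the Watson-Crick rules.
miR393-5p: uCCAAAGGgaucgcauugaucc
AFB2 site: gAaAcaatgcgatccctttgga
AFB3 site: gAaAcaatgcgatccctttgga
TIR1 site: gAGAcaatgcgatccctttgga
AFB1 site: gAGAcCatgcgatccctttgga
AFB2 and AFB3 hold the same letters, with 2 unpaired bases of 22, TIR1 has 3 and AFB1 has 4. The best window of AFB5 had 8 unpaired bases and is not printed. The sites start at bases 1501, 1507, 1516 and 1504 of the longest annotated coding sequences of AFB2, AFB3, TIR1 and AFB1, counted from the first base of the start codon. The 4 receptors with the better-paired site had log2 fold changes between 0.0023 and 0.25 and AFB5 had 0.06, none of them called. The part of miR393 in these values was not tested. The 2 precursor loci, looked up because of these sites and too low to test, had 3, 2 and 1 reads (MIR393a) and 3, 3 and 0 reads (MIR393b) in memory plants, and 0, 0 and 0 and 4, 2 and 0 reads in wild-type plants 22, 23 and 24.

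Per kb of the longest annotated transcript, TIR1 was the most abundant receptor transcript, at 46.1 ± 5.25 CPM per kb in memory plants and 46.0 ± 2.28 in wild-type plants (SD, n = 3 each). AFB3 stood at 35.8 ± 3.78 and 31.6 ± 3.37, AFB5 at 32.8 ± 1.14 and 31.4 ± 0.348, AFB2 at 25.7 ± 1.94 and 22.9 ± 0.754, and AFB1 at 12.9 ± 1.38 and 10.8 ± 4.14 CPM per kb in memory and wild-type plants. AFB3 and AFB5 could not be placed in order, since their ranges over the 6 plants (28.9 to 39.3 and 31.0 to 34.0 CPM per kb) lie over each other. AFB1 stayed below AFB2 in every plant (at most 15.1 against at least 22.4 CPM per kb). Of the summed reads of these 5 receptors TIR1 took 31.6% ± 0.912 in memory plants and 33.9% ± 0.336 in wild-type plants. A further receptor gene, AFB4, is not in that sum and is counted below with the corepressor and ubiquitin ligase genes. AFB4 had 15.6, 21.3 and 19.4 CPM in memory plants, against 22.4, 20.1 and 25.2 CPM in wild-type plants. Its log2 fold change was -0.27, opposite in sign to those of the 5 (adjusted p = 0.597 in edgeR).

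**Figure D2:**
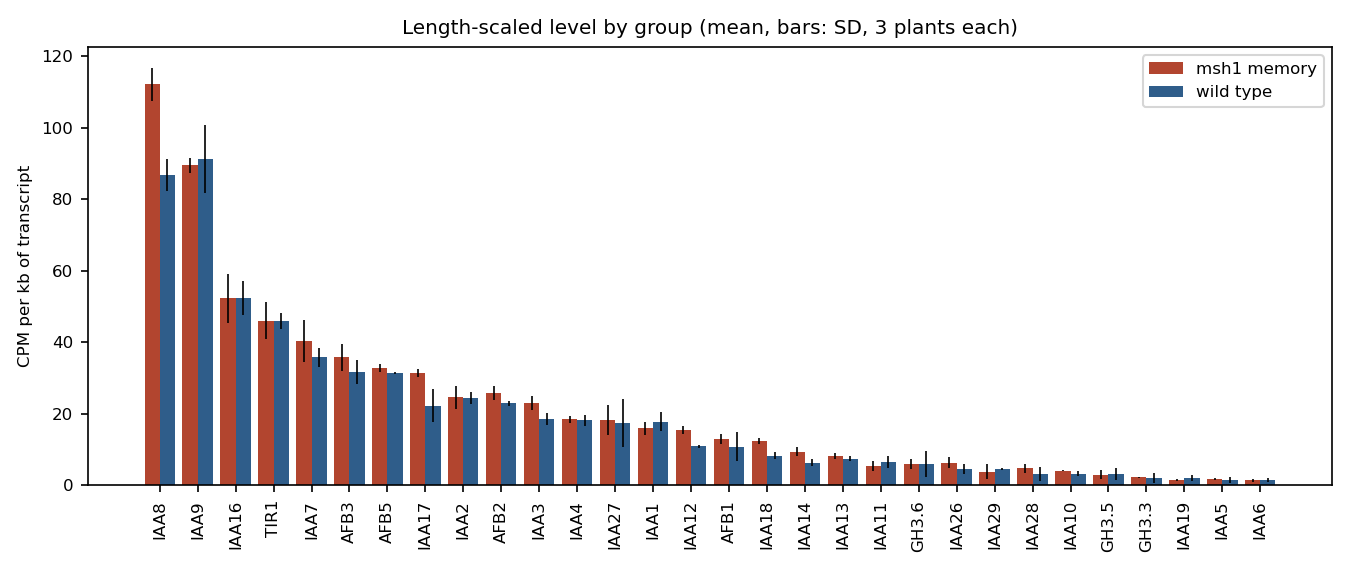
TMM-scaled CPM per kb of the longest annotated transcript for the members that averaged at least 1 CPM per kb, in order of the mean over 6 plants; bars are means and error bars SDs of 3 plants. IAA8 and IAA9 stand above the rest, and the 5 receptors lie between 10.8 and 46.1 CPM per kb in both groups.

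The Aux/IAA family spanned a wide range of levels. IAA8 led at 112.2 ± 4.57 CPM per kb in memory plants and 86.8 ± 4.50 in wild-type plants, followed by its sister gene IAA9 at 89.5 ± 2.11 and 91.3 ± 9.60 CPM per kb (SD, n = 3 each). IAA8 lay above IAA9 in the 3 memory plants and below it in the 3 wild-type plants. IAA16, at 52.3 ± 6.94 and 52.4 ± 4.64 CPM per kb, and IAA7, at 40.4 ± 5.90 and 35.8 ± 2.57, came next among the repressors. Summed over the 29 loci, Aux/IAA transcripts came to 826.8, 842.6 and 793.6 CPM in memory plants and to 718.8, 691.8 and 784.1 CPM in wild-type plants.

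9 Aux/IAA genes were too low to test, with at most 10 reads in any library. IAA31 and IAA33 had 0 reads in all 6 libraries, which allows up to 0.521 to 0.692 CPM in each (3 counts, counting error only). IAA15 had 1 read, in wild-type plant 23, and IAA20 had 1 read, in wild-type plant 24. IAA32 had 1 read in each memory plant and 0 in each wild-type plant, and IAA34 had 1, 2 and 1 reads in memory plants and 1, 2 and 2 in wild-type plants. IAA30 had 2, 5 and 1 reads in memory plants and 5, 0 and 4 in wild-type plants. As background, IAA20, IAA30, IAA32, IAA33 and IAA34 encode proteins without the canonical degron. IAA5 and IAA6, from the clade that auxin induces early, had 6, 7 and 7 and 4, 6 and 7 reads in memory plants, against 4, 10 and 4 and 10, 5 and 6 reads in wild-type plants. At this depth no difference in these 9 could be detected.

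**Figure D3:**
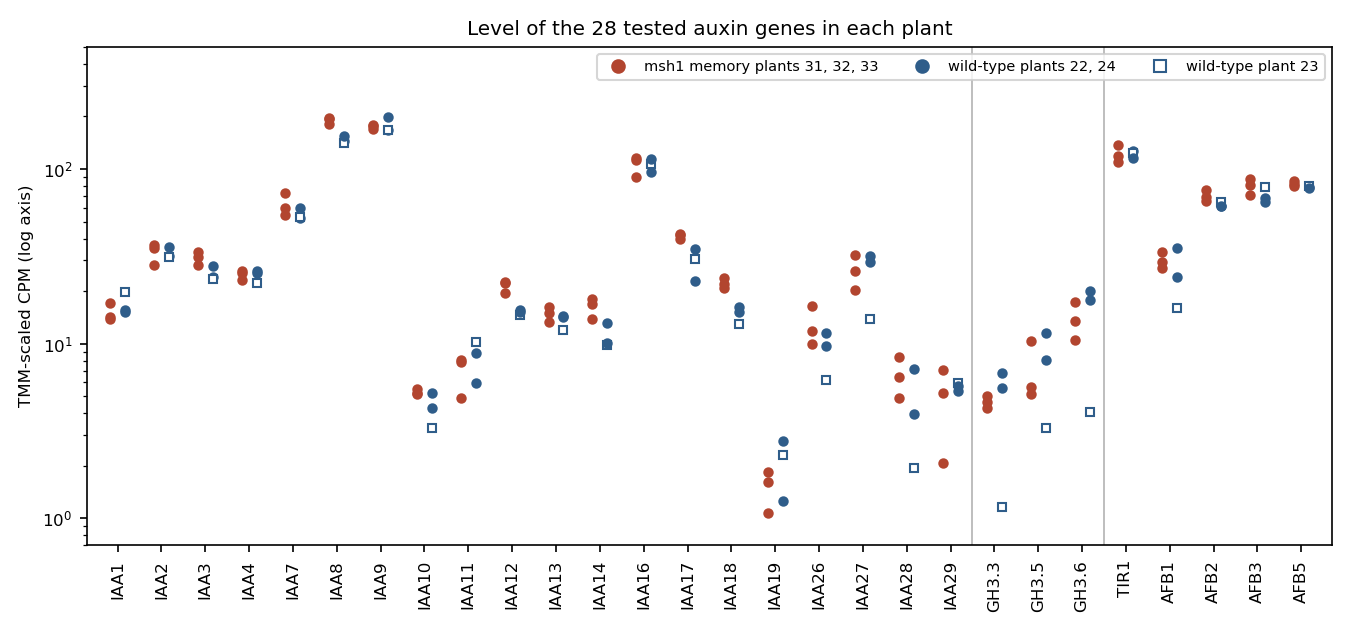
TMM-scaled CPM (log axis) of the 28 tested members in each plant, memory plants left and wild-type plants right within each gene; the open square is wild-type plant 23, and grey lines part Aux/IAA, GH3 and receptor genes. The memory plants lie above all wild-type plants in IAA8, IAA12, IAA17 and IAA18, and by smaller gaps in IAA3, IAA14, AFB2 and AFB5. The square is the lowest point in each GH3 gene.

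IAA18 (AT1G51950, chromosome 1, 19305081 to 19307518), whose gain-of-function mutants have defects in embryonic and lateral roots, had 22.0, 23.9 and 20.8 CPM in memory plants, against 16.2, 12.9 and 15.1 CPM in wild-type plants 22, 23 and 24. All memory plants were above all wild-type plants. The log2 fold change of 0.59 (SE 0.175, interval 0.21 to 0.97) was among the largest of the family but did not pass adjustment (edgeR unadjusted p = 0.00556, adjusted p = 0.136). Over the alternatives its adjusted p ran between 0.119 and 0.401. Its sister genes IAA26, known for a viral interaction, and IAA28, known from lateral root initiation, had positive values too, 0.48 and 0.60, with groups that overlapped. Both depended on single plants, since leaving out each plant in turn moved IAA26 between 0.26 (without plant 33) and 0.68 (without plant 24) and IAA28 between 0.26 (without plant 23) and 1.16 (without plant 24), none called. IAA28 had the widest reach upward, with an interval up to 1.53.

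IAA12 (AT1G04550, chromosome 1, 1240294 to 1242157), the BODENLOS repressor that restrains the response factor MONOPTEROS in the embryo, had 22.6, 22.3 and 19.6 CPM in memory plants, against 15.6, 14.7 and 15.1 CPM in wild-type plants. The wild-type plants lay within 1 CPM of each other and below every memory plant. Its log2 fold change was 0.51 ± 0.169 (SE; adjusted p = 0.195 in edgeR). IAA13, its sister gene, stood at 14.8 ± 1.49 CPM in memory plants and 13.5 ± 1.35 CPM in wild-type plants (SD, n = 3 each), with groups that overlapped.

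IAA17 (AT1G04250, chromosome 1, 1136078 to 1138663), the AXR3 gene in which stabilising mutations give auxin resistance, had 42.0, 42.3 and 39.7 CPM in memory plants, against 34.8, 30.5 and 22.7 CPM in wild-type plants. The memory plants were nearly equal and the wild-type plants spread below them. Its log2 fold change was 0.50 ± 0.169 (SE; adjusted p = 0.210 in edgeR). Without plant 23 its adjusted p was 0.0833, the lowest of any member under any alternative run, and over all of them it reached 0.549.

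IAA14 (AT4G14550, chromosome 4, 8347822 to 8350263), the SOLITARY-ROOT repressor of lateral root formation, had 13.9, 18.1 and 16.8 CPM in memory plants, against 13.1, 9.83 and 10.07 CPM in wild-type plants. The gap between memory plant 31 and wild-type plant 22 was under 1 CPM. Its log2 fold change was 0.56 ± 0.212 (SE; adjusted p = 0.272 in edgeR). IAA7, the AXR2 gene and the closest relative of IAA14, had 72.5, 59.6 and 54.9 CPM in memory plants and 52.4, 53.4 and 59.7 CPM in wild-type plants, with groups that overlapped.

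IAA8 (AT2G22670, chromosome 2, 9636346 to 9638761), the Aux/IAA gene with the most reads per length over the 6 plants, had 181.2, 195.6 and 193.2 CPM in memory plants, against 144.8, 140.8 and 155.5 CPM in wild-type plants. Every memory plant exceeded every wild-type plant. The log2 fold change was 0.37 ± 0.131 (SE; adjusted p = 0.235 in edgeR). IAA9 (AT5G65670, chromosome 5, 26253408 to 26256544), the Aux/IAA gene with the most reads, whose counterpart in tomato is known for leaf shape and fruit set, had 176.1, 169.9 and 177.8 CPM in memory plants and 167.8, 166.6 and 199.6 CPM in wild-type plants, at a log2 fold change of -0.028 ± 0.137 (SE). IAA9 overlaps another annotated gene.

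IAA3 (AT1G04240, chromosome 1, 1128149 to 1129689), the SHY2 repressor through which cytokinin limits root growth, had 31.3, 33.5 and 28.4 CPM in memory plants, against 24.0, 23.5 and 27.8 CPM in wild-type plants. The groups came within 1 CPM of each other. The log2 fold change was 0.31 ± 0.152 (SE; adjusted p = 0.437 in edgeR), and IAA3 overlaps AT1G04230. IAA4, its sister gene, stood at 25.0 ± 1.51 CPM in memory plants and 24.7 ± 2.05 CPM in wild-type plants (SD, n = 3 each).

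IAA1, IAA2, IAA19 and IAA29, which respond early to auxin or shade, were not called. IAA1 had 17.1, 14.2 and 13.8 CPM in memory plants and 15.6, 19.7 and 15.1 CPM in wild-type plants, at a log2 fold change of -0.16. IAA2 stood at 33.4 ± 4.41 CPM in memory plants and 33.0 ± 2.26 CPM in wild-type plants, at a log2 fold change of 0.018. IAA19, a gene of hypocotyl bending and elongation, and IAA29, a shade-responsive gene, were low, at 1.51 ± 0.399 and 4.77 ± 2.51 CPM in memory plants and 2.12 ± 0.779 and 5.70 ± 0.298 CPM in wild-type plants (SD, n = 3 each). Their log2 fold changes of -0.49 and -0.24 had intervals reaching -1.61 and -1.10, and all of these groups overlapped. IAA10, IAA11, IAA16, IAA26 and IAA27 had adjusted p-values between 0.534 and 0.998 in edgeR.

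3 pairs of Aux/IAA genes sit back to back, each pair facing away from a space that holds 1 other annotated gene. IAA3 and IAA17 are 6388 bases apart on chromosome 1, IAA14 and IAA1 are 10732 bases apart on chromosome 4, and IAA2 and IAA7 are 12510 bases apart on chromosome 3. In the first pair both genes had memory plants above all wild-type plants, in the second IAA14 alone did, and in the third neither gene did.

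The ratio of reads between close relatives within a library does not depend on how libraries are scaled. Within the clades of the family, 13 pairs of members were each other's closest relative by coding sequence, at 66.6% to 84.5% identical bases, and in 10 of them both genes were tested. IAA8 had 1.03, 1.15 and 1.09 reads per read of IAA9 in memory plants, against 0.863, 0.845 and 0.779 in wild-type plants. IAA12 had 1.39, 1.68 and 1.31 reads per read of IAA13 in memory plants, against 1.09, 1.23 and 1.06 in wild-type plants. IAA3 had 1.20, 1.44 and 1.12 reads per read of IAA4 in memory plants, against 0.918, 1.05 and 1.09 in wild-type plants. IAA8, IAA12 and IAA3 were already among the genes whose own groups did not overlap, on the same reads. In these 3 of the 10 pairs the ratios of the groups did not overlap. The share over other pairs of genes was not computed, and the 19.7% given above is for single genes. For each of the 3 pairs the exact two-sided permutation test gave p = 0.10, the smallest that 3 against 3 allows. After adjustment over the 10 pairs it was 0.333, so the design could not place these pairs past 0.05. The receptor pair AFB2 and AFB3 had the closest group means, at 0.883 ± 0.0351 and 0.891 ± 0.0643 (SD, n = 3 each).

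**Figure D4:**
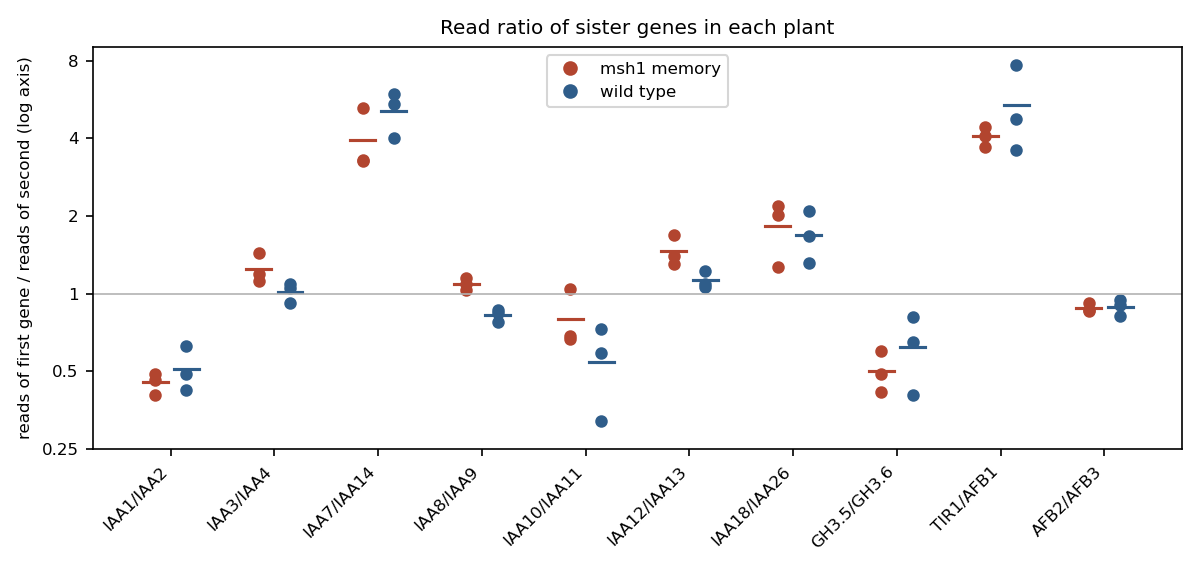
Reads of one gene per read of its closest relative in each plant (log axis), memory plants left and wild-type plants right in each pair, with a short line at the group mean. The groups part in IAA3/IAA4, IAA8/IAA9 and IAA12/IAA13 and overlap in the other 7 pairs.

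No GH3 gene passed the test, and wild-type plant 23 was the lowest of the 6 plants in each. GH3.6 (AT5G54510, chromosome 5, 22130964 to 22133688), the DFL1 gene that shortens light-grown shoots when overexpressed, had 10.4, 13.4 and 17.3 CPM in memory plants, against 19.9, 4.05 and 17.7 CPM in wild-type plants 22, 23 and 24. Plant 23 was lowest of all and the other wild-type plants highest. The log2 fold change was -0.028 ± 0.521 (SE; adjusted p = 0.990 in edgeR), and its interval of -1.26 to 1.21 does not leave out a doubling or a halving.

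GH3.3 (AT2G23170, chromosome 2, 9863855 to 9866562), an early auxin-induced conjugating enzyme, had 4.26, 5.02 and 4.61 CPM in memory plants, against 6.82, 1.16 and 5.55 CPM in wild-type plants. The memory plants lay between the wild-type plants. GH3.5 (AT4G27260, chromosome 4, 13653579 to 13656285), the WES1 enzyme that also conjugates salicylic acid, had 5.12, 5.62 and 10.4 CPM in memory plants, against 8.08, 3.28 and 11.5 CPM in wild-type plants. Plant 23 was lowest here too, and both genes had adjusted p-values above 0.9 in edgeR. Without plant 23 the log2 fold changes of GH3.3, GH3.5 and GH3.6 were -0.41, -0.48 and -0.45, and without wild-type plant 22 they were 0.44, -0.086 and 0.32, with none called in either case.

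Plant 23 was also the lowest of the 6 in 16 of the 28 tested members, or 57.1%, where it was lowest in 25.6% of all tested genes. All of 10 markers of dividing cells, among them the mitotic cyclin gene CYCB1;2 and the cytokinesis gene KNOLLE, were lowest in plant 23. They summed to 85.3, 89.3 and 74.9 CPM in memory plants 31, 32 and 33, and to 98.0, 15.4 and 103 CPM in wild-type plants 22, 23 and 24. Their part in the low GH3, AFB1, IAA27 and IAA28 values of plant 23 was not tested.

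**Figure D5:**
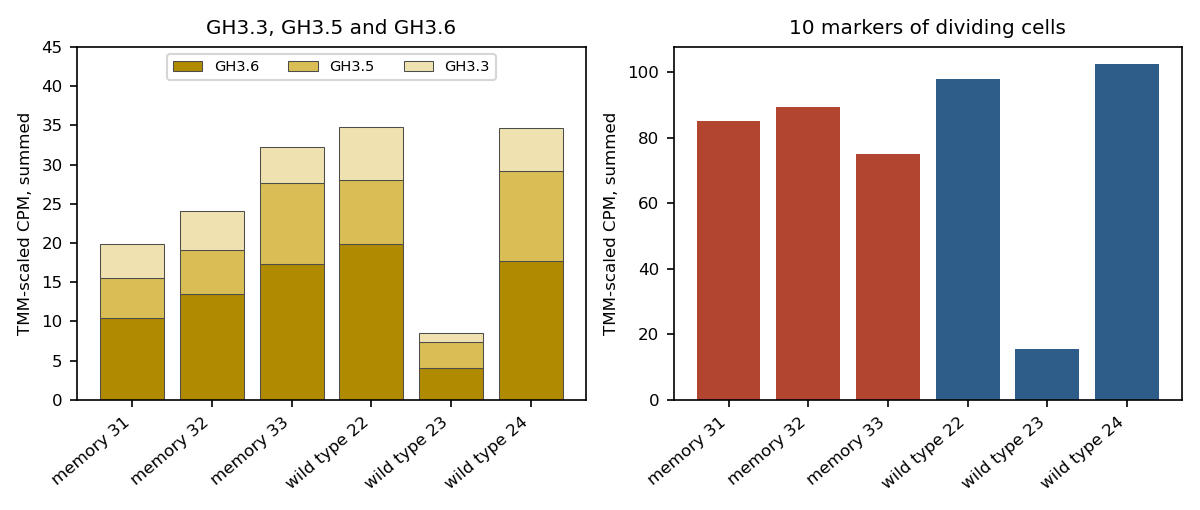
Left, summed TMM-scaled CPM of GH3.6, GH3.5 and GH3.3 in each plant; right, summed CPM of 10 markers of dividing cells. Wild-type plant 23 is the lowest bar in both panels, at 8.48 CPM for the GH3 genes and 15.4 CPM for the markers.

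The promoters were read for the element through which ARFs act. The 250 bases upstream of each annotated gene start, from TAIR10.1, were searched on both strands for TGTCTC, the auxin response element first described in soybean, and for TGTCGG, a form that ARF proteins bind more tightly. Both motifs begin with TGTC and differ in their last letters, so no stretch of a strand is counted under both. 12 of 37 members (32.4%) held TGTCTC, against 10.9% of the windows of 27443 protein-coding genes, and 6 members (16.2%) held TGTCGG, against 4.16%. AAAATATCT, the evening element of clock-controlled genes, was in none of the 37 and in 2.36% of all windows. The GH3 windows are shown because plant 23 was the lowest plant in all of those genes, IAA19 because it held the most matches to TGTCTC, and IAA8 because it had the highest mean per kb among the repressors, with matches to TGTCTC or its reverse complement in capitals.
GH3.3, chr2:9866563-9866812, minus strand: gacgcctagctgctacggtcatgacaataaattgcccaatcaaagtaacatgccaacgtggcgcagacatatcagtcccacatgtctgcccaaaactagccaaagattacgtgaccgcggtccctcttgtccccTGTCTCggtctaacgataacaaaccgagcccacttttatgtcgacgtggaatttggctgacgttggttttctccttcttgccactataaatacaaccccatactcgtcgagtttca
GH3.5, chr4:13653329-13653578, plus strand: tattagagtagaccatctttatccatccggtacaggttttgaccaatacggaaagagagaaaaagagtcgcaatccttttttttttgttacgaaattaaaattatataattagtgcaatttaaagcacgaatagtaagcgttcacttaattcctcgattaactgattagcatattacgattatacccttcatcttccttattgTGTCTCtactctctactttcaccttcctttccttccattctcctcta
GH3.6, chr5:22133689-22133938, minus strand: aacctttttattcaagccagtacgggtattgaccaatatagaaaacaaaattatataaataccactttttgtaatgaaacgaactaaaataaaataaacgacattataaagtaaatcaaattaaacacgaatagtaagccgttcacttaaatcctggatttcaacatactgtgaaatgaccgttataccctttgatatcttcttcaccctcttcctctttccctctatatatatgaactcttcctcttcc
IAA19, chr3:5263751-5264000, plus strand: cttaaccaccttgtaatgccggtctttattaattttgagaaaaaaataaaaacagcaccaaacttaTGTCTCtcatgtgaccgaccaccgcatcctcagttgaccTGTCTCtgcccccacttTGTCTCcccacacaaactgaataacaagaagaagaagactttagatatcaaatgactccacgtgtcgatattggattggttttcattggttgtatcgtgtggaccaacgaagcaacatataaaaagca
IAA8, chr2:9636096-9636345, plus strand: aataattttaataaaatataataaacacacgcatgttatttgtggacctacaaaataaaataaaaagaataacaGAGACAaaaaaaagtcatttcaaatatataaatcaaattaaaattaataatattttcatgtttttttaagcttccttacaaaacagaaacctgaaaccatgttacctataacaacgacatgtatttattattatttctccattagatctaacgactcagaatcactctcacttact
GH3.3 and GH3.5 each held 1 match, starting 116 and 47 bases upstream of the gene start, and GH3.6 held none in its window. IAA19 held 3 matches, 184, 145 and 128 bases upstream, and IAA8 held 1 on the opposite strand. Of the 6 tested Aux/IAA genes whose groups did not overlap, IAA8 held TGTCTC and IAA12 held TGTCGG. The other tested genes of these, IAA3, IAA14, IAA17 and IAA18, held neither.

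Other steps of the auxin pathway gave 1 call in all. The SAUR list, named for small auxin-induced RNAs, was taken by name: 80 loci with a SAUR number as symbol or synonym. Whether each is induced by auxin was not tested. Of the 80, 35 were tested, 1 was higher and 0 were lower, with a median log2 fold change of 0.22. The call was SAUR78 (AT1G72430), which rose to 26.9, 32.7 and 30.9 CPM in memory plants, against 17.6, 17.2 and 17.0 CPM in wild-type plants (log2 fold change 0.80 ± 0.157, SE; adjusted p = 0.0222 in edgeR). The groups were well apart, but the call was lost without any 1 plant other than plant 23, at adjusted p-values between 0.0549 and 0.131. In either direction 1 of 35 SAUR genes was called, where 1.82% of all tested genes were called, 0.449% higher and 1.37% lower. At an unadjusted p under 0.05 in edgeR there were 6 of the 35 (17.1%), against 12.8% of all tested genes.

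In edgeR 0 of 4 tested synthesis genes, 0 of 12 transport genes, 0 of 15 ARF genes, 0 of 13 corepressor and ubiquitin ligase genes, 0 of 4 other auxin-inactivating genes and 0 of 5 other response genes were called, with 1, 2, 2, 1, 0 and 1 of them at an unadjusted p under 0.05. Over all tested genes edgeR called 1.82%, and 12.8% had an unadjusted p under 0.05. PIN7, an auxin efflux carrier, had 108.5, 111.7 and 96.4 CPM in memory plants, against 146.4, 177.8 and 154.1 CPM in wild-type plants, a log2 fold change of -0.59 ± 0.140 (SE; adjusted p = 0.0569 in edgeR). All memory plants were below all wild-type plants, and DESeq2 placed the gene past the threshold (adjusted p = 0.00826), as did edgeR with no low-count filter (0.0389) and without plant 23 (0.0136), while over all alternatives the adjusted p reached 0.278. DRM2, a dormancy-associated gene, had 29.4, 35.9 and 27.7 CPM in memory plants, against 73.4, 79.6 and 173.7 CPM in wild-type plants 22, 23 and 24, a log2 fold change of -1.81 ± 0.350 (SE; adjusted p = 0.0560 in edgeR). Its groups were apart as well, plant 24 was far above the others, and without that plant the log2 fold change was -1.30 (edgeR adjusted p = 0.00253). DESeq2 called it lower (adjusted p = 6.1e-08), as did voom (0.0284), edgeR without robust estimation (0.0162) and edgeR without wild-type plant 22 (0.0257), while over all alternatives the adjusted p reached 0.239.

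The synthesis gene TAR2, a tryptophan aminotransferase, stood at 18.3 ± 4.62 CPM in memory plants and 10.8 ± 1.16 CPM in wild-type plants (SD, n = 3 each; edgeR adjusted p = 0.133), and without plant 23 it was past the threshold (adjusted p = 0.0396, and up to 0.470 over the other alternatives). ARF9 stood at 14.8 ± 1.98 and 20.5 ± 2.83 CPM in memory and wild-type plants (edgeR adjusted p = 0.318). RBX1, the RING subunit of the ubiquitin ligase, stood at 28.9 ± 2.48 and 36.5 ± 3.15 CPM (edgeR adjusted p = 0.364). Among the other inactivating genes the smallest p was that of DAO1 (AT1G14130), an auxin oxidase, at 7.10 ± 0.986 and 5.74 ± 2.32 CPM (edgeR adjusted p = 0.767).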

How the data were processed

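The authors deposited whole-number read counts per locus, 1 table per plant, with TAIR10 and DESeq2 named in the submitters' processing notes; aligner, counting program, strand use and the treatment of reads with several matches were not given in the sources used here. Per the labels' protocols, TruSeq RNA v2 libraries, which do not mark strand, were read at 150 bp. 11 of the 37 members overlap another annotated gene, and reads of close relatives may be shared.

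Counts were analysed with edgeR 4.0.16 in R 4.3.3: filterByExpr (minimum count 10, minimum total 15), TMM scaling, robust glmQLFit and the two-sided glmQLFTest, with Benjamini-Hochberg adjustment over all 16928 genes tested and a threshold of 0.05. SEs and 95% intervals were computed from each log2 fold change and its quasi-likelihood F. The 3 plants of a group are separate individuals, and no pair of libraries of 1 group was alike within sampling noise (chi-square per degree of freedom at least 3.12). Names, positions and sequences come from the TAIR10.1 annotation, matched by locus (32835 of 33602 loci and all 37 members); the tables hold no coordinates. The method was tested on simulated data, in which the changes set were larger than any measured in the members.

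Values per plant are given for called members, for the 6 Aux/IAA, 3 GH3 and 5 receptor genes with the smallest p and the Aux/IAA gene with the highest mean CPM, and by reads for untested members; of each other list, up to 3 called genes or the 1 with the smallest p are named. Values of IAA1, IAA7, single flower markers and the MIR393 loci, and the ratios of relatives, were added after values were seen. Alternatives were other scalings and filters, DESeq2 1.42.0, limma voom 3.58.1, no robust estimation and leaving out each plant. The members and lists were chosen with earlier results of these data known.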

Additional observations from a re-analysis of the deposited data

How the results depend on the processing

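No member was called under any of the 14 alternatives to the first fit, and the lowest adjusted p was 0.0833. Values near 0 changed sign, none of them called, and the cause was not tested: with library totals IAA9, IAA16 and GH3.6 stood at log2 fold changes of 0.038, 0.062 and 0.020, with upper-quartile scaling IAA9 and IAA16 at 0.0015 and 0.029, with voom GH3.6 at 0.21, and TIR1 at -0.0049 with no low-count filter, -0.0020 with DESeq2 and -0.0019 with voom. Leaving out each plant in turn gave ranges of -0.054 to 0.12 for IAA2, -0.047 to 0.069 for IAA4, -0.070 to 0.065 for IAA9, -0.068 to 0.10 for IAA16, -0.21 to 0.28 for IAA27, -0.62 to 0.10 for IAA29, -0.41 to 0.44 for GH3.3, -0.51 to 0.30 for GH3.5, -0.45 to 0.32 for GH3.6 and -0.089 to 0.081 for TIR1. Values that kept their sign but moved by over 1.5 times ran from -0.26 to -0.024 for IAA1, 0.053 to 0.26 for IAA7, 0.15 to 0.48 for IAA10, -0.46 to -0.067 for IAA11, 0.054 to 0.21 for IAA13, -0.76 to -0.30 for IAA19, 0.26 to 0.68 for IAA26, 0.26 to 1.16 for IAA28, 0.022 to 0.57 for AFB1, 0.11 to 0.22 for AFB2, 0.10 to 0.27 for AFB3 and 0.037 to 0.094 for AFB5. With library totals the median over all genes was 0.074 and over members 0.16.

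Among the other lists, transport genes had 1 call with no low-count filter and 1 with DESeq2 (PIN7). Other response genes had 1 each with DESeq2, voom and no robust estimation (DRM2). SAUR genes had 2 with no low-count filter and 2 with DESeq2, SAUR78 higher and SAUR48 lower in memory plants. SAUR48 had 0 reads in each memory plant and 8, 3 and 16 reads in wild-type plants 22, 23 and 24. Without single plants the counts ran from 0 to 1 for synthesis, transport and other response genes and from 0 to 3 for SAUR genes; without plant 23 the calls were TAR2, PIN7, DRM1, SAUR78, SAUR14 and SAUR16. The order of length-scaled levels moved for 2 members with library totals. No paired analysis was possible because no plant number occurs in both groups. The 4060216 to 5806617 counts per plant limit genes under a few CPM.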
